A study of Mus musculus with 6 samples.

Results

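The genes described here are 10 growth-factor induced genes, *Ier2*, *Ier3*, *Ier5*, *Fos*, *Jun*, *Junb*, *Egr1*, *Myc*, *Dusp1* and *Dusp6*, in mouse neuroblastoma cells with reduced levels of nucleophosmin 1 (NPM1). They were taken by gene symbol, all 10 were found among the 26656 genes listed, and they were selected on results of this comparison, in which *Ier3* was known to be lower in the rlog values of the same libraries. Their values between the conditions are therefore a description of these genes and carry no p-value.

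Immediate early genes are transcribed within minutes after a growth factor, serum or stress reaches the cell, and need no new protein synthesis for it. A main route is the RAS, RAF, MEK and ERK kinase cascade, which phosphorylates transcription factors already bound at these genes. Many of the products, such as FOS, JUN and EGR1, are transcription factors themselves. Others, among them the dual-specificity phosphatases and the Sprouty proteins, act back on the cascade and dampen it. In cells that grow in serum, the steady-state mRNA levels of these genes are in general lower than their peak after a fresh stimulus.

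The cells were Neuro-2a (N2a), a line derived from a mouse neuroblastoma, labelled as wild type and kept in medium with fetal bovine serum. They were transfected either with pLKO.1-shNpm1, which encodes a short hairpin RNA against *Npm1* (NPM1 KD), or with pLKO.1-shCTR, a non-target hairpin (CTR), and RNA was taken after 72 h. Puromycin at 9.3 µg/ml was present from 24 h onwards in the NPM1 KD experiments, and whether CTR cells were selected likewise is not said outright. The knockdown used a single hairpin sequence, and no stimulation with a growth factor was part of the design. Each condition had 3 libraries, called 3 biological replicates in the description of the series and 2 in the treatment protocol, so that the spread between libraries may in part be technical. The comparison addressed whether *Ier3* was lower upon NPM1 KD alone or together with other growth-factor induced genes.

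Libraries of cDNA, amplified by PCR, were sequenced on a nanopore instrument, and the deposited values are regularized log (rlog) values, which are on the log2 scale, normalized for depth and shrunk where reads are few. All 75364 deposited values of 1 or more in size were whole numbers, so that a difference of less than 1 can go unseen. Relative depth was 1.11 to 1.30 in the CTR libraries and 0.784 to 0.961 in the NPM1 KD libraries, so every CTR library was deeper than every NPM1 KD library, and counting error is larger upon NPM1 KD. *Npm1* (ENSMUSG00000057113) stood at an rlog value of 10 in every CTR and 8 in every NPM1 KD library. Of 16 sympathoadrenal and neuronal markers, 13 had reads, while the neurofilament genes *Nefl* and *Nefm* were among those with none. Of these markers 8 were tested, with a median difference of −1 in rlog values, against 0 over all tested genes. Upon NPM1 KD 6 of the 8 had a lower mean, and 2, the secretory granule genes *Chga* (difference −1.33) and *Chgb* (−1.67), were called lower at an adjusted p below 0.05 from limma, against 0.417% of all tested genes. The neuronal genes *Stmn2* (9 against 8 in each library) and *Tubb3* (8 against 7) and the homeobox gene *Isl1* (5 against 4) were lower by 1 without overlap between the groups, but not called (adjusted p = 0.0791 each). *Mycn* also had a lower mean, and *Hand2* a higher one (difference 0.33). The part of these markers in the results below was not tested. Of 14 markers of fibroblasts, glia, blood, endothelium and epithelium, 13 were analysed, of which 6 had no reads and 0 were abundant enough to be tested. The other 7 summed to 10.8 to 25.0 depth-normalized reads per CTR library and 6.25 to 11.5 per NPM1 KD library, and their part in the results below was not tested.

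The stretches upstream of 3 of the genes are shown because they differ in short elements known from the control of such genes. RefSeq promoter sequences of the GRCm38.p6 assembly were at hand for 7 of the 10 genes, and *Ier2*, *Egr1* and *Myc* were not among them. The 250 bases before the transcription start of *Ier3* (chr17:35821463-35821712), *Fos* (chr12:85473640-85473889) and *Dusp6* (chr10:99262981-99263230), each on the plus strand, read as follows, with capitals marking matches to the motifs named next.
Ier3: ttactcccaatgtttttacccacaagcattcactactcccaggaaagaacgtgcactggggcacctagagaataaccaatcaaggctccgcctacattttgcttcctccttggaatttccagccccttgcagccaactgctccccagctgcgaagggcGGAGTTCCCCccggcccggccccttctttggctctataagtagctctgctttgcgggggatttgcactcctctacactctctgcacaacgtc
Fos: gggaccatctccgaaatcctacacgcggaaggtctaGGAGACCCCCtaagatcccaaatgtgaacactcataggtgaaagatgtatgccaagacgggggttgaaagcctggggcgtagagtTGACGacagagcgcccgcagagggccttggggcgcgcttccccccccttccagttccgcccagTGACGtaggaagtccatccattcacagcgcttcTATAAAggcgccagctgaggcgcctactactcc
Dusp6: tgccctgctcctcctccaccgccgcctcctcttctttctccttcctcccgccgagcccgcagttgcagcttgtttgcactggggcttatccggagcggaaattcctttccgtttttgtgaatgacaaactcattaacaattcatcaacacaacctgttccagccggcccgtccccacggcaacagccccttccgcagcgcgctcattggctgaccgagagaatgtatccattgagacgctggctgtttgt

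The motifs were searched on both strands. They were the core of the cyclic AMP response element (TGACG), the full palindromic element that contains it (TGACGTCA), the TATA box (TATAAA), the E-box bound by MYC and MAX (CACGTG), an ETS factor motif (CCGGAAG), the CArG box bound by serum response factor, and the NF-kB motif. *Fos* had TGACG starting 129 and 66 bases before the start, TATAAA at 33 bases before it, and an NF-kB motif 214 to 205 bases before it. *Ier3* had a single match, to the NF-kB motif, 92 to 83 bases before the start. *Dusp6* had no match to any of the motifs in this stretch. Among the 7 members with a sequence, TGACG was found in 3 (*Fos*, *Junb* and *Dusp1*), the full element in 1 (*Dusp1*), TATAAA in 1, the E-box in 1 (*Dusp1*) and the NF-kB motif in 2. Of all 32851 promoters in the table, 17.8% held TGACG, 1.55% the full element, 12.4% TATAAA, 6.02% CACGTG and 7.25% the NF-kB motif. The CArG box (1.47% of all promoters) and CCGGAAG (6.91%) were found in 0 of the 7. These matches describe letters in a window and not binding.

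Among the members, *Ier3* had the largest difference in rlog values upon NPM1 KD, and rounding can hide smaller differences in the others. Of the 10 members, 7 reached the filter, a mean rlog of log2 of 10, and entered the comparison over 5752 genes with limma's moderated test. At a Benjamini-Hochberg adjusted threshold of 0.05, 1 of these 7 was called lower and 0 higher, against 0.417% of all tested genes called lower and 0.0695% called higher. Because *Ier3* was known to be lower when the genes were chosen, nothing is read from this share. The mean difference was below 0 in 3 of the 7 members, 0 in 4 and above 0 in none, against 1574 lower (27.4%), 2762 equal (48%) and 1416 higher (24.6%) among all tested genes. A single value in all 6 libraries was seen in 2 of the 7, *Ier2* and *Junb*, and in 40.2% of all tested genes.

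**Figure D1:**
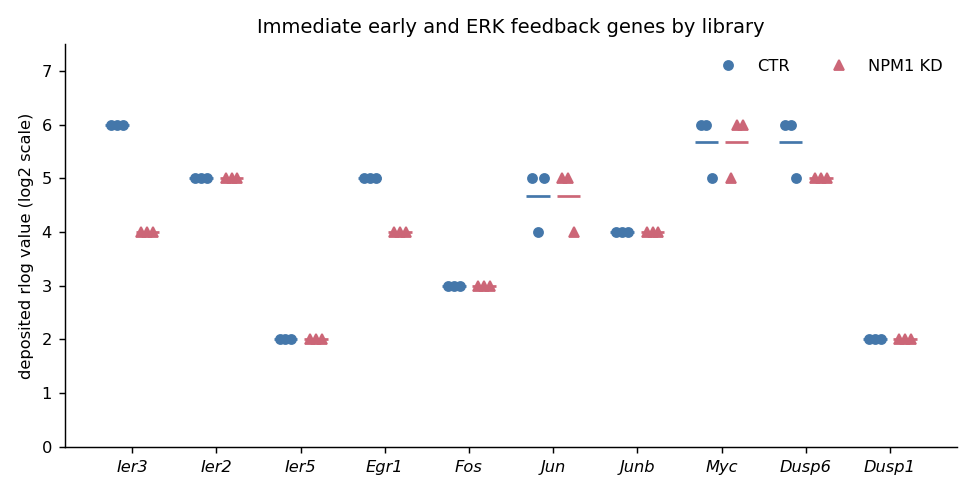
Deposited rlog values (log2 scale, vertical axis) of the 10 genes in each of the 3 CTR (circles) and 3 NPM1 KD (triangles) libraries, with the mean of each group as a short line. *Ier3* stands at 6 in all CTR and at 4 in all NPM1 KD libraries, *Egr1* at 5 and 4, and the groups of the other 8 genes overlap.

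The genes named for an immediate early response come first. *Ier3* (ENSMUSG00000003541), also known as IEX-1, encodes a small protein that has been linked to cell survival and to prolonged ERK phosphorylation. Its rlog value was 6 in each of the 3 CTR libraries and 4 in each of the 3 NPM1 KD libraries. The groups did not overlap, and no library within a group stood apart from the others. The mean difference was −2 on the log2 scale (standard error 0.33, n = 3 per group), and since each value was rounded, the difference before rounding lay between −3 and −1. For genes with equal values within each group, such as *Ier3*, the standard error comes from the fit, in which the variance of rounding was a lower limit. It is not a measured spread between libraries. Of all tested genes, 5 (0.0869%) had a difference of −2 or lower. With any 1 library left out the difference stayed at −2, as it must where the rounded values are equal within each group.

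*Ier2* (ENSMUSG00000053560) and *Ier5* (ENSMUSG00000056708), which belong to a protein family apart from IER3 despite the shared name, did not show this difference in rlog values. *Ier2* was at 5 in all 6 libraries, with a mean normalized count of 31.6 by the authors' table and a difference of 0 (standard error 0.33). The rounding leaves room for a true difference between −1 and 1. *Ier5* was at 2 in all 6 libraries, a level below the filter, with a mean normalized count of 3.58 by the authors' table.

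The transcription factors were next. *Egr1* (ENSMUSG00000038418), a zinc finger factor and a classical ERK target, was at 5 in each CTR library and at 4 in each NPM1 KD library. As for *Ier3*, the groups did not overlap, but its difference was −1 (standard error 0.33), between −2 and 0 before rounding, and it was not called. Among all tested genes, 3.41% had NPM1 KD libraries that all lay below the CTR libraries, and 218 (3.79%) had a difference of −1 or lower. *Egr1* was called lower when the lower limit on the variance or the intensity trend was left out of the fit, settings in which 3.09% and 3.79% of all tested genes were called lower. These calls add no support, since its rounded values were equal within each group, with a standard error of 0.00073 without the limit. Without the trend all tested members shared a standard error of 0.32, so that a call followed from the size of the difference.

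The AP-1 subunits showed no difference of this kind. *Jun* (ENSMUSG00000052684) had values of 5, 4 and 5 in CTR and of 5, 5 and 4 upon NPM1 KD. Its lower library in each group gave equal means and a difference of 0 (standard error 0.33). *Junb* (ENSMUSG00000052837), which competes with JUN for partners, was at 4 in all 6 libraries (difference 0, standard error 0.35). *Fos* (ENSMUSG00000021250), which binds DNA as a dimer with JUN proteins, was at 3 in all 6 libraries, below the filter. *Myc* (ENSMUSG00000022346), a growth-promoting factor induced by serum, had values of 6, 6 and 5 in CTR and of 5, 6 and 6 upon NPM1 KD. Its difference was 0 (standard error 0.34), and leaving out 1 library moved it between −0.33 and 0.33, as it did for *Jun*.

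The phosphatases close the group. *Dusp6* (ENSMUSG00000019960) encodes a cytoplasmic phosphatase that dephosphorylates ERK and is itself induced by ERK. Its values were 6, 6 and 5 in CTR and 5 in each NPM1 KD library. CTR replicate 3 shared the value of the NPM1 KD libraries, so the groups overlapped. The difference was −0.67 (standard error 0.33), between −1.67 and 0.33 before rounding, and it was not called. A difference of −0.67 or lower was seen in 678 tested genes (11.8%). Without CTR replicate 3 the difference of *Dusp6* was −1, and over the 6 fits it ranged from −1 to −0.50. *Dusp1* (ENSMUSG00000024190), a nuclear phosphatase of the MAP kinases and itself an immediate early gene, was at 2 in all 6 libraries, below the filter.

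**Figure D2:**
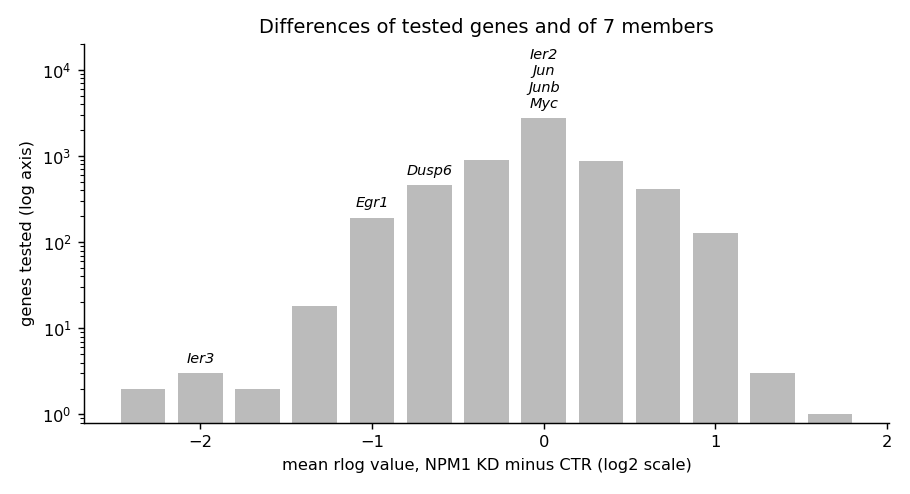
Number of tested genes (vertical log axis) at each mean difference, NPM1 KD minus CTR, of the rlog values (horizontal axis, log2 scale), with the 7 tested members written above their bars. *Ier3* lies at −2 near the lower end of the 5752 genes, *Egr1* at −1, *Dusp6* at −0.67, and *Ier2*, *Jun*, *Junb* and *Myc* at 0.

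For genes with few reads, the authors' mean normalized count could be written as whole reads per library in exactly 1 way, which gives a value that is not rounded. This held for 8796 of 8804 genes with a mean normalized count below 10 (99.9%), and among the members for *Ier5*, *Fos* and *Dusp1*. Counts that small are dominated by counting error, and reads of PCR products are not independent molecules. *Fos* had 12, 10 and 6 reads in the CTR libraries and 6, 5 and 5 in the NPM1 KD libraries. After division by the relative depth this was 7.58 ± 2.14 against 6.29 ± 1.25 reads (SD, n = 3 per group), with overlapping groups. *Dusp1* had 9, 4 and 2 reads in CTR and 2, 2 and 6 upon NPM1 KD, or 4.04 ± 2.85 against 3.73 ± 2.18 depth-normalized reads (SD, n = 3 per group). For *Dusp1* the SD of either group was larger than the difference of the means, and for *Fos* that of the CTR group was.

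*Ier5* had 7, 2 and 8 reads in CTR and 3, 1 and 2 upon NPM1 KD. CTR replicate 2 was as low as the NPM1 KD libraries, and the depth-normalized means were 4.78 ± 2.92 and 2.37 ± 1.34 reads (SD, n = 3 per group). On the scale of log2 of depth-normalized reads plus 0.5, the difference was −0.78 for *Ier5* (standard error 0.69), −0.23 for *Fos* (standard error 0.46) and −0.03 for *Dusp1* (standard error 0.65). The median over the 4331 genes in this fit was −0.14. None of the 3 was called, and for a gene at these levels a difference of about the size of the standard error is not detectable. In this fit 2 genes (0.0462%) were called lower and 0 (0%) higher, and 588 genes (13.6%) had an unadjusted p below 0.05.

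**Figure D3:**
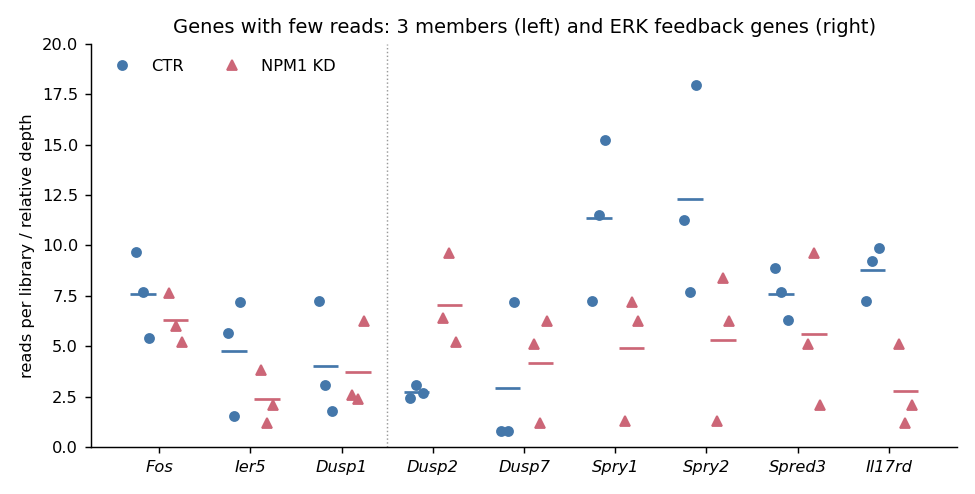
Reads per library divided by relative depth (vertical axis) for 3 members, left of the dotted line, and for the 6 ERK feedback genes in the fit on reads, right of it, in 3 CTR (circles) and 3 NPM1 KD (triangles) libraries, with group means as short lines. *Fos*, *Ier5* and *Dusp1* overlap between the groups, *Spry1* and *Il17rd* lie lower and *Dusp2* lies higher in all NPM1 KD libraries.

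The other genes of the response were taken from 4 lists drawn up from general knowledge. Of 54 further immediate early genes, 5 had no reads and 18 were tested. Upon NPM1 KD 3 of these had a lower, 9 an equal and 6 a higher mean rlog value, with a median difference of 0, as over all tested genes, and 0 were called in either direction. None had an unadjusted p below 0.05, against 14.1% of all tested genes. This share depends on the fit. Without the intensity trend 2 lower and 1 higher of the 18 genes fell below that level, against 678 lower and 543 higher of all 5752. In the main fit a difference of 0.67 in size fell on either side of the level, by small differences in the standard error. The 0 is therefore no sign that these genes changed less than others. *Nfkbia*, the inhibitor of NF-kB that NF-kB itself induces, was at 7, 6 and 6 in CTR and at 6, 6 and 5 upon NPM1 KD, a difference of −0.67 (standard error 0.34, adjusted p = 0.33 from limma). *Pim3*, a serine/threonine kinase gene, was at 7 in each CTR library and at 7, 6 and 6 upon NPM1 KD, which is the same mean difference. *Id3*, an inhibitor of basic helix-loop-helix factors, was at 6 in each CTR library and at 6, 7 and 7 upon NPM1 KD, a difference of 0.67 (standard error 0.34, adjusted p = 0.33 from limma). These 3 had the largest differences among the tested genes of the list, were picked after their values were seen, and overlapped between the groups. *Atf3*, *Jund*, *Klf10*, *Btg1* and *Srf* differed by at most 0.33.

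Among the genes of this list below the filter, 17 could be fitted on reads. Of these, 10 had a lower and 7 a higher depth-normalized mean, against 54.4% lower among all genes in the fit on reads. Their median difference on the log2 scale was −0.50, against −0.14 over all genes in this fit. By the rule for named genes, *Nr4a3*, an orphan nuclear receptor, is given with 2, 3 and 2 reads in CTR and 0, 1 and 1 upon NPM1 KD, too few to be fitted. *Trib1*, a pseudokinase gene picked after its values were seen, had 2, 3 and 1 reads in CTR against 6, 8 and 3 upon NPM1 KD. All NPM1 KD libraries were higher after depth normalization, with 1.60 ± 0.70 against 6.80 ± 3.33 reads (SD, n = 3 per group), and the difference of 1.72 on the log2 scale did not pass the threshold (standard error 0.65, adjusted p = 0.259 from limma). It was the only gene of the 17 with an unadjusted p below 0.05. *Fosl2*, likewise picked afterwards, fell most of the 17, with 7, 5 and 10 reads in CTR against 4, 1 and 1 upon NPM1 KD. Its groups overlapped (difference −1.37, standard error 0.66, adjusted p = 0.367 from limma). Without overlap, *Per1* was lower (difference −1.08, adjusted p = 0.444 from limma) and *Csrnp1* higher (difference 1.28, adjusted p = 0.5 from limma).

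The list nearest to *Dusp6* in function holds 20 other genes of ERK feedback and ERK output, 10 of which were tested. Of these 6 had a lower, 3 an equal and 1 a higher mean rlog value, with a median difference of −0.33, against 0 over all tested genes. None was called, 0 had an unadjusted p below 0.05, and none differed by more than 0.33 in either direction. *Dusp4*, a nuclear ERK phosphatase gene, was at 7, 6 and 6 in CTR and at 6 in each NPM1 KD library. The ETS factor gene *Etv4* was at 7 in each CTR library and at 7, 6 and 7 upon NPM1 KD, and *Etv5* was at 4, 5 and 5 against 4, 4 and 5. *Spry4* and *Spred2*, which encode inhibitors of RAS activation and signalling to RAF, each had 1 value in all 6 libraries. *Ccnd1*, the cyclin D1 gene, had 1 library at 5 and the others at 4 in each group.

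Below the filter, 6 genes of the list could be fitted on reads. Of these, 4 had a lower and 2 a higher depth-normalized mean, against 54.4% lower among all genes in this fit. Their median difference on the log2 scale was −0.97, against −0.14 over all genes in this fit. An unadjusted p below 0.05 was seen for 4 of the 6 (3 lower and 1 higher), against 13.6% of all genes in this fit. None of them passed the adjusted threshold. *Il17rd*, which encodes the FGF receptor and ERK pathway inhibitor SEF, had 9, 12 and 11 reads in CTR and 4, 1 and 2 upon NPM1 KD. Its groups did not overlap, with 8.78 ± 1.36 against 2.80 ± 2.05 depth-normalized reads (SD, n = 3 per group), a difference of −1.66 on the log2 scale (standard error 0.58, adjusted p = 0.214 from limma). Its rlog values, which derive from the same reads and are no separate support, were 3 in each CTR and 2 in each NPM1 KD library.

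*Spry1* and *Spry2*, Sprouty genes picked after their values were seen, had similar counts. *Spry1* had 9, 15 and 17 reads in CTR and 1, 6 and 6 upon NPM1 KD, a difference of −1.33 (standard error 0.55, adjusted p = 0.311 from limma). *Spry2* had 14, 10 and 20 reads in CTR and 1, 7 and 6 upon NPM1 KD, a difference of −1.35 (standard error 0.55, adjusted p = 0.307 from limma). NPM1 KD replicate 1 was the lowest library for both genes, and the depth-normalized groups of *Spry2* overlapped while those of *Spry1* did not. *Dusp2*, the gene of another nuclear phosphatase and likewise picked afterwards, went the other way, with 3, 4 and 3 reads in CTR and 5, 8 and 5 upon NPM1 KD (difference 1.19, standard error 0.55, adjusted p = 0.356 from limma).

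**Figure D4:**
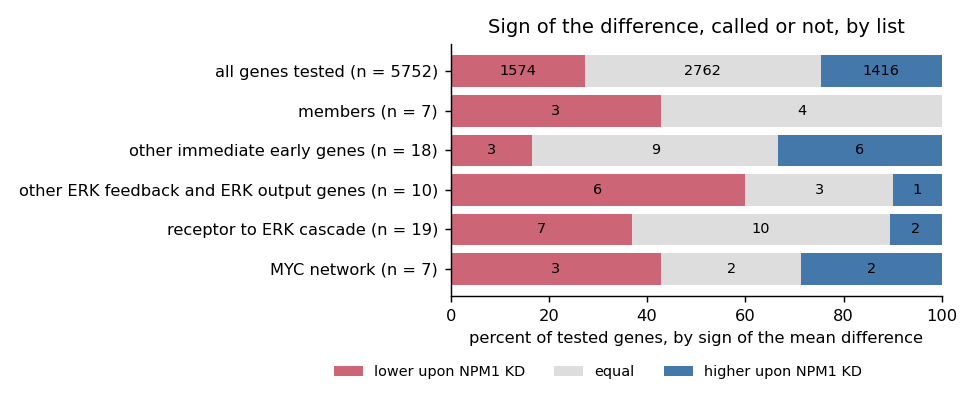
Share of tested genes (horizontal axis, percent) with a lower, equal or higher mean rlog value upon NPM1 KD, whether called or not, for all tested genes, the members and the 4 lists, with gene numbers in the bars. The ERK feedback list has 6 lower and 1 higher gene, and the further immediate early genes have 3 lower and 6 higher.

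Upstream of these genes lies the cascade from receptors to ERK and the factors ERK acts on. Of 43 genes listed, 4 had no reads and 19 were tested, of which 7 had a lower, 10 an equal and 2 a higher mean, with a median difference of 0 and 0 called. At an unadjusted p below 0.05 there were 3, *Ret*, *Shc1* and *Mapk3*, all lower, against 8.07% of all tested genes. *Ret*, the receptor tyrosine kinase of GDNF family ligands, was at 7 in each CTR library and at 6 in each NPM1 KD library. Its difference of −1 (standard error 0.35, adjusted p = 0.0791 from limma) did not pass the threshold, although the groups did not overlap. Of the kinases below it, *Map2k1* and *Map2k2*, the MEK genes, were at 5 in all 6 libraries. *Mapk3* (ERK1) was at 6, 6 and 5 in CTR and at 5 in each NPM1 KD library, the same values as *Dusp6* (adjusted p = 0.33 from limma). *Grb2* and *Fgfr1* were at 4 in all 6 libraries. *Fgfr3* had 5, 1 and 2 reads in CTR and no reads in the NPM1 KD libraries, too few to be fitted. Of the 13 genes of the list fitted on reads, 10 had a lower and 3 a higher depth-normalized mean, against 54.4% lower among all genes in that fit. Their median difference on the log2 scale was −0.11, against −0.14 over all genes in that fit. Among the 13, 0 had an unadjusted p below 0.05.

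The partners and antagonists of MYC were examined beside *Myc* itself. Of 12 genes, 7 were tested, with 3 lower, 2 equal and 2 higher means, and 0 were called. *Max*, the obligate partner of MYC, was at 4 in each CTR library and at 5, 5 and 4 upon NPM1 KD, and *Mycn*, the family member amplified in many human neuroblastomas, was at 5, 4 and 5 in CTR and at 4 in each NPM1 KD library. Both differences were 0.67 in size, with an adjusted p of 0.33 from limma, and both genes overlapped between the groups. They were the only genes of the 7 with an unadjusted p below 0.05. *Mxd1* and *Mxd3*, which encode repressors that compete with MYC for MAX, had few reads. *Mxd1* had 10, 15 and 13 reads in CTR and 2 in each NPM1 KD library, or 10.4 ± 2.04 against 2.35 ± 0.24 depth-normalized reads (SD, n = 3 per group). Its difference of −1.92 on the log2 scale (standard error 0.52, adjusted p = 0.115 from limma) missed the threshold. *Mxd3* had 12, 8 and 10 reads in CTR and 3, 3 and 4 upon NPM1 KD, a difference of −0.98 (standard error 0.50, adjusted p = 0.392 from limma). Neither gene overlapped between the groups. The 3 genes of the list fitted on reads all had a lower depth-normalized mean, against 54.4% lower among all genes in that fit. Their median difference on the log2 scale was −0.98, against −0.14 over all genes in that fit.

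The genes whose 6 rlog values, each relative to the CTR mean, lay nearest to those of *Ier3* were in none of the 4 lists. *Scd2*, a stearoyl-CoA desaturase gene, and *Npm1* itself had the same pattern, at a Euclidean distance of 0 over the 6 libraries. *Scd2* was at 8 in each CTR and at 6 in each NPM1 KD library. At a distance of 1 lay 4 genes, among them *Aldoc*, a glycolytic aldolase gene, with 7, 6 and 6 in CTR and 4 in each NPM1 KD library, *Fn1* (fibronectin), with 6, 6 and 5 against 4 in each, and *Myadm*, with 7, 7 and 8 against 5 in each. Whole-number values make such ties frequent.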

How the data were processed

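RNA of N2a cells, 3 CTR and 3 NPM1 KD libraries grouped by the sample descriptions, was read as long reads from PCR-amplified cDNA. The submitters' processing notes name minimap2, featureCounts, DESeq2 and GRCm39, with no versions or settings. The authors deposited rlog values, scores on the log2 scale, of which those of 1 or more in size are whole numbers, and a table of their own comparison. From the latter only the mean normalized count over all 6 libraries was used, while its log2 fold changes, standard errors, test statistics and p-values were not. Of 26913 deposited entries, 257 repeated a gene identifier and were dropped.

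Genes whose rlog values averaged log2 of 10 or more (5752) entered a two-sided limma test (version 3.58.1, R 4.3.3; lmFit, then eBayes with a trend), with within-group variances raised to 0.0833, which is the variance of rounding, where they fell below it, and Benjamini-Hochberg adjustment at 0.05. Of these genes 2310 had 1 value in all 6 libraries.

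Reads per library were worked out in Python 3.11.15 from mean normalized counts below 10, as the whole numbers of reads that, divided by the relative depths, give the deposited mean. The depths were matched to libraries by 1098 genes with unrounded rlog values (lowest correlation with the own column 0.9988, highest with another −0.0914). Genes with a mean normalized count of at least 2 were fitted with limma on log2 of depth-normalized reads plus 0.5. Depth covers counting error only.

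The members and gene lists were chosen with earlier results of these data known. Named genes are the members, *Npm1*, genes of each pathway list past the threshold or, up to 5 per list, not past it but without overlap between the groups, and the 5 nearest to *Ier3*. This rule went by the rlog values. Cell type markers, the neighbours of *Ier3* and all other genes of the lists were named outside this rule, after their values were seen. Alternatives were other filters, fits without the variance limit or the trend, centring, a replicate block, leaving out each library, and the fit on reads. The promoter stretches with their coordinates and the order of neighbouring genes refer to GRCm38.p6, another build than the GRCm39 named for the files. Other gene coordinates were not printed for this reason. Values of some single genes of the lists are not reported here.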

Additional observations from a re-analysis of the deposited data

How the results depend on the processing

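The difference of *Ier3* was −2 in each fit that left out 1 library, which its equal rounded values within each group fix in advance. Since it was chosen on these values, its calls are a description and no support. Of the other members *Egr1* alone was called in any fit, which brought the members called lower to 2 without the limit on the variance and to 2 without the trend. In each of these fits 1 gene of the receptor to ERK list, *Ret*, was called lower. The rounded values of *Egr1* and *Ret* were equal within each group, so these calls restate their difference of −1 and are no support. Over all genes, 123 were called higher and 178 lower without the limit, and 132 higher and 218 lower without the trend. Without a filter the counts were 1 higher and 10 lower, and the fits that left out 1 library gave 0 to 2 higher and 5 to 9 lower. The fit on reads called 0 genes higher and 2 lower, with 0 members called lower, since only *Ier5*, *Fos* and *Dusp1* could enter it, and gave −0.78 for *Ier5*, whose rounded values differ by 0. A filter at log2 of 5 gave 4 higher and 27 lower, and centring the libraries gave 4 higher and 24 lower. With the replicate number as a block, 1 gene was called higher and 7 lower. The deviations of samples with the same number correlated at 0.0089, 0.0013 and 0.0298, and those with different numbers at −0.0364 to 0.0245. The highest of the latter was that of CTR replicate 1 with NPM1 KD replicate 2. All were small and came from rounded values, so whether the numbers pair the samples could not be decided. Rounding, and at low levels the read counts, limit what can be detected.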

Other observations

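The protein-coding neighbours of *Ier3* in the RefSeq order of the GRCm38.p6 assembly were looked at after its values were seen. The first gene before it, *Ddr1*, a collagen receptor kinase gene, was at 5, 5 and 4 in CTR and at 5, 4 and 4 upon NPM1 KD, a difference of −0.33 (adjusted p = 0.713 from limma). The next ones, *Gtf2h4* and *Vars2*, were at 3 and at 2 in all 6 libraries and below the filter. On the other side *Flot1* was at 3 in all 6 libraries, also below the filter. *Tubb5*, a beta-tubulin gene, was at 10 in each CTR library and at 9 in each NPM1 KD library, a difference of −1 (adjusted p = 0.0791 from limma), and *Mdc1*, a DNA damage mediator gene, was at 4, 5 and 4 against 4 in each (adjusted p = 0.713 from limma). None of these neighbours was called.

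Among the sparse markers of other cell types, *Pecam1*, an endothelial adhesion gene, had 6, 4 and 9 reads in CTR and 0 reads in each NPM1 KD library (adjusted p = 0.18 from limma's fit on reads).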
